A study of Homo sapiens with 2 samples.

Results

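The 55 protein-coding keratin genes of the human RefSeq table, of 19974 protein-coding genes in all, were placed in the chromosome domains of HepG2 cells with and without fatty acids. Members were all protein-coding genes whose symbol is KRT followed by a number, with the keratin-associated proteins (KRTAP) left out. HepG2 is a long-established line grown from a human liver cancer. Cells of the PA+OA group were given 120 µM palmitic acid, a saturated fatty acid, and 240 µM oleic acid, a monounsaturated fatty acid, for 48 h. Mock cells were given DMSO at a dilution of 1 in 1000, also for 48 h. The fatty acid medium held 1% fatty acid-free BSA, and the labels leave unclear whether the mock medium did too. Hi-C, a sequencing assay that joins and reads DNA fragments found near each other inside the nucleus, gave 1 library per group and 1 list of topologically associating domains per library. Such a domain is a stretch of chromosome that contacts itself more than its neighbours, and a boundary is the point between adjoining domains.

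Keratins are the intermediate filament proteins of epithelial cells. A filament forms only when an acidic type I keratin pairs with a basic or neutral type II keratin. In the human genome they lie in a pair of dense clusters, type II on chromosome 12 and type I on chromosome 17, with the type I gene KRT18 as an exception at the end of the type II cluster. Hepatocytes rely on the pair KRT8 and KRT18, which are main components of the Mallory-Denk bodies seen in some fatty liver disease. Most other members belong to skin, stratified epithelia, hair or nail. The lists hold domain positions and no expression values, so neither the transcription of any keratin nor the liver identity of the cells was measured here.

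The files listed 2679 mock and 2524 PA+OA domains on hg38, with edges at multiples of 40 kb, and the depth of the libraries is unknown. With 1 library per group there is no replicate error, so each difference is one between a pair of lists and no test of the treatment was possible. Each gene was placed by the middle of its record. A domain is called kept where both of its edges had a boundary of the other list within 40 kb and the other list had no further boundary inside. Kept domains made up 47.9% of mock and 50.6% of PA+OA domains.

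The clusters differed in how they were divided. All 27 genes of the type II cluster lay in kept mock domains, and all 27 had a domain with equal coordinates in both lists. Over all protein-coding genes, 40.5% lay in a kept mock domain and 33.3% had equal coordinates. None of the 28 genes of the type I cluster did in either respect. The shares of all genes were 55.3% and 38.4% on chromosome 12, and 40.2% and 25.4% on chromosome 17. Seen from the PA+OA list, again all 27 genes of the type II cluster and 0 of the type I cluster lay in kept domains, against 40.4% of all genes. Genes of a domain share its edges, so the 27 type II genes stand for 3 domains and the 28 type I genes for 1 domain of each list, and the contrast between the clusters rests on those few domains. All 55 genes were placed in both lists, against 98.1% of all genes.

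**Figure D1:**
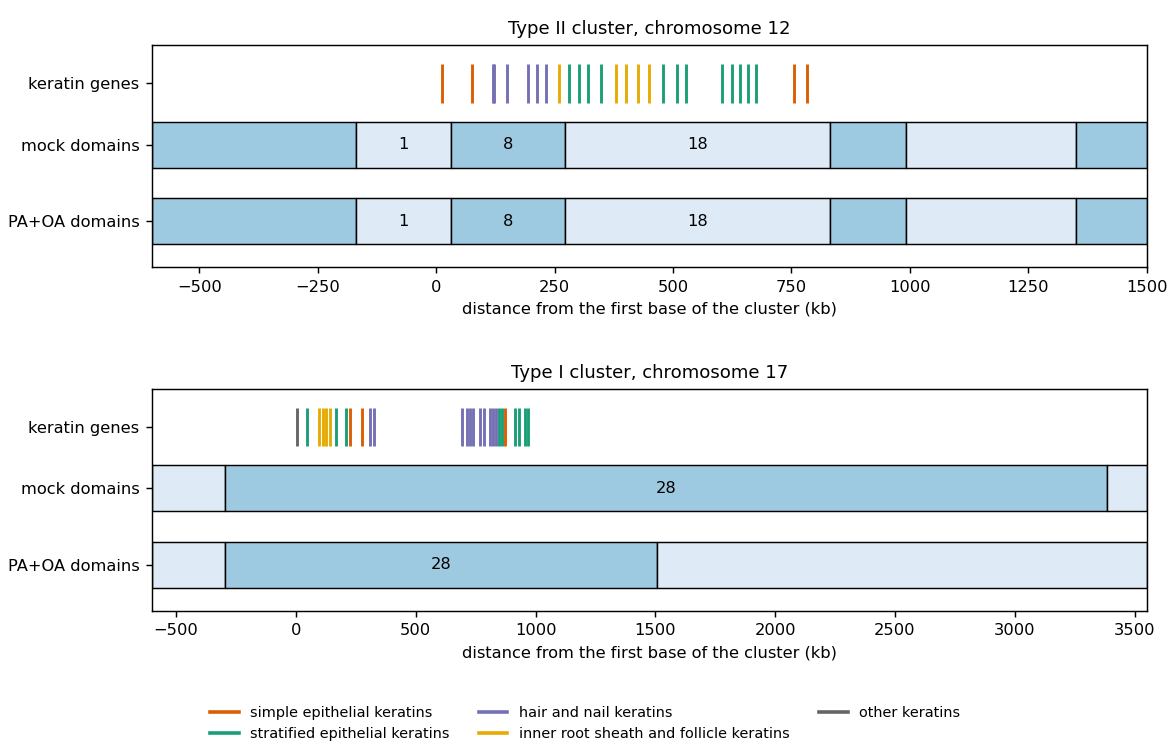
Domains of the mock and PA+OA lists over the keratin clusters, drawn to scale against the distance in kb from the first base of each cluster, with a different scale in each panel. Vertical ticks are gene middles coloured by role, boxes are domains, and the number in a box is its count of keratin genes. For the colours, KRT80 was grouped with the keratins of simple epithelia. The type II cluster is divided into 1, 8 and 18 genes at equal places in both lists, and the type I cluster lies whole in 1 domain whose right edge differs.

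The type II cluster ran over 784 kb, from KRT80 to KRT18, on chromosome 12 from 52168996 to 52952906. Both lists placed 2 boundaries inside it, at 52200000 and at 52440000. The first parted KRT80 from KRT7, a keratin of simple epithelia, in the stretch of 41.2 kb between their records. The second lay in the 12.3 kb between KRT75, a hair follicle keratin, and KRT6B, a keratin of stratified and wounded epithelium. That gap is narrower than the 40 kb bin, so the lists do not resolve on which side of single genes there the boundary lies. KRT80 ended 7.99 kb before the first boundary, less than a bin, so its side is likewise not resolved.

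The domain of KRT80 ran from 52000001 to 52200000, a length of 200 kb, in both lists. It held 4 other protein-coding genes, among them the nuclear receptor gene NR4A1 and, next to KRT80, SMIM41. The domain from 52200001 to 52440000, of 240 kb, held 8 keratin genes and no other protein-coding gene. These were KRT7 of simple epithelia, all 6 type II hair and nail keratins (KRT81, KRT82, KRT83, KRT84, KRT85 and KRT86) and KRT75. The domain from 52440001 to 53000000, of 560 kb, held 18 keratin genes and again no other protein-coding gene.

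All 12 type II keratins of stratified epithelia lay in the domain of 560 kb. Among them were KRT5, the partner of KRT14 in basal cells, and KRT1, the partner of KRT10 in the upper epidermis. It also held KRT71, KRT72, KRT73 and KRT74 of the inner root sheath, and KRT8 and KRT18. By the boundary at 52440000 the type II hair keratins were thus apart from the stratified ones. By the same boundary KRT7 was apart from KRT8, while KRT8 and the type I gene KRT18 stayed together, and their records overlap by 1006 bases. KRT18 ended 47.1 kb before the edge at 53000000. Beyond that edge lay the translation factor gene EIF4B, and the next domain, of 160 kb, also held SOAT2, which encodes a cholesterol-esterifying enzyme of liver and intestine.

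Few domains with many genes held symbols of a single kind. Of 749 mock domains with at least 8 protein-coding genes, 5 held only genes whose symbols begin with the same letters (0.668%), and 2 of these 5 were the keratin domains of 240 and 560 kb. Another held GAGE genes, and the other 2 held only symbols that begin with LOC, a placeholder for unnamed genes and not a family. In the PA+OA list it was 4 of 698, of which 2 were the same keratin domains, 1 held GAGE genes and 1 held LOC symbols. This count was chosen after the domains had been seen, and its lower limit of 8 genes equals the gene count of the 240 kb keratin domain. Both keratin domains were shorter than the middle of the list. Of the mock domains above zero length, 86.3% were longer than the domain of 240 kb and 54.2% were longer than that of 560 kb, and the median was 640 kb in each list.

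The agreement of the lists around the type II cluster went beyond the keratins. From 52000000 to 55720000, a stretch of 3.72 Mb, 10 boundaries in a row had the same position in both lists, with none between them in 1 list only. Of 648 such runs over all chromosomes, 6 (0.926%) were as long, the median run had 2 boundaries and the longest had 12. That share counts each run once, although a longer run can cover more genes. The share of genes in runs as long was not computed. Within 1 Mb on either side of the cluster, each of the 8 boundaries of the mock list was matched within 40 kb by PA+OA, and 7 of the 8 were at the same position. The exception was at 51360000 in the mock list and at 51400000 in the PA+OA list.

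In the type II cluster, the distance from gene middle to the nearest boundary was the same in both lists for all 27, with a median of 91.9 kb and a range from 9.4 kb for KRT6B to 257 kb for KRT77. KRT75 was at 10.78 kb and KRT80 at 19.5 kb. KRT7 was at 44.55 kb, KRT18 at 49.12 kb, KRT8 at 76.47 kb, KRT5 at 77.48 kb and KRT1 at 237.57 kb. For all protein-coding genes the median was 297 kb with mock and 313 kb with PA+OA boundaries, and on chromosome 12 it was 179 and 186 kb. KRT1, KRT2, KRT3, KRT4, KRT76 and KRT77 were farther away than the mock median of chromosome 12, and KRT73, at 179.16 kb, was about at it. KRT80, KRT82, KRT75, KRT6B and KRT6C lay within 1 bin of a boundary, which made 5 of 27 genes. On chromosome 12 as a whole, 15.5% of genes did by mock and 15.1% by PA+OA boundaries, so the count of such genes was near that background.

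**Figure D2:**
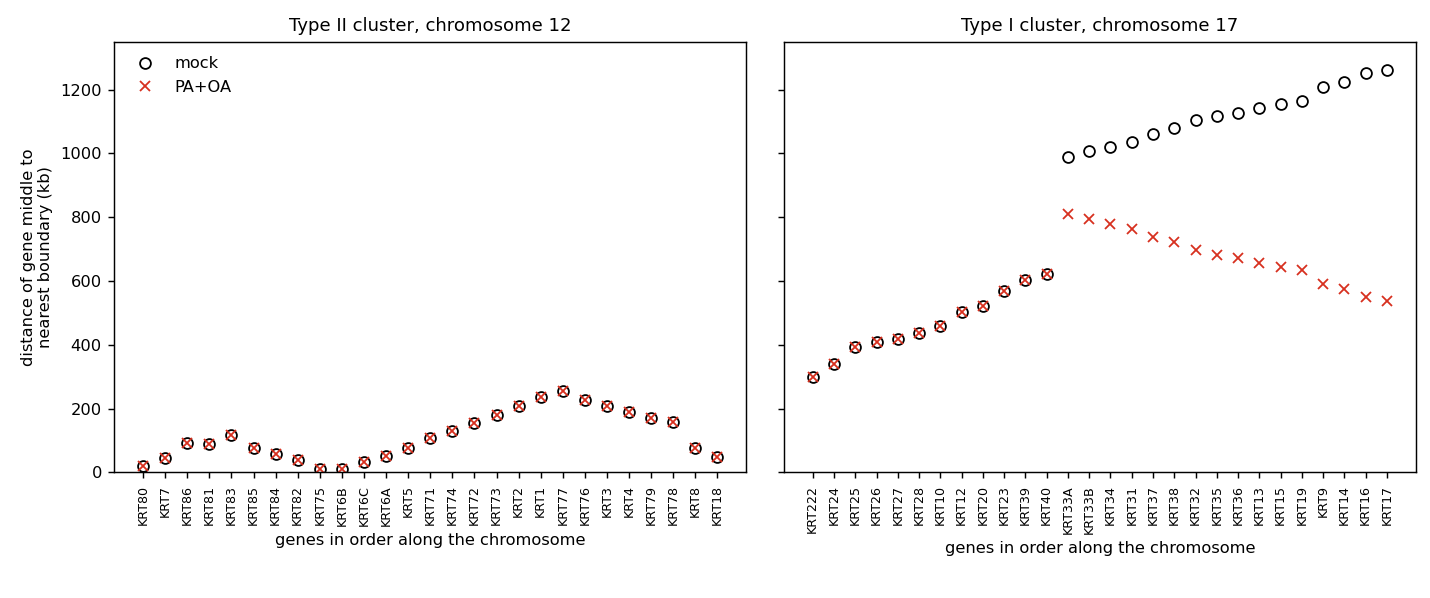
Distance in kb from the middle of each keratin gene to the nearest domain boundary, with genes in chromosome order and equally spaced, for the mock list (open circles) and the PA+OA list (crosses). All type II values coincide, between 9.4 and 257 kb, and from KRT33A on the type I values part, up to 1262 kb (mock) against 538 kb (PA+OA) at KRT17.

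The promoters of 5 type II genes are shown because keratin promoters hold a sequence feature that the choice of members did not use. KRT82 and KRT75 lie within 1 bin of a boundary, KRT5 and KRT8 were fixed to be named, and KRT71 is an example with the full motif, chosen after its sequence was seen. KRT80, KRT7, KRT6B, KRT6C, KRT1 and KRT18 were not matched in the promoter table. Each line gives the 60 bases before the start site from the RefSeq promoter table, build GRCh38.p14, on the minus strand and 5′ to 3′. Capitals mark the letters TATAAA, the core of a TATA box, or ATAAA where the first T is absent. The windows are chr12:52406336-52406395 for KRT82, chr12:52434372-52434431 for KRT75, chr12:52520395-52520454 for KRT5, chr12:52553146-52553205 for KRT71 and chr12:52926470-52926529 for KRT8. The start site of KRT8 in that table lies 23391 bases inside the gene record, so its window may not be the start used in liver cells.
KRT82: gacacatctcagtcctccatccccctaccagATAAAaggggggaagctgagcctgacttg
KRT75: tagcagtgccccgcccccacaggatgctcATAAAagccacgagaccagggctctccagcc
KRT5: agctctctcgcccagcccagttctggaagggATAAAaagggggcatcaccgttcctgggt
KRT71: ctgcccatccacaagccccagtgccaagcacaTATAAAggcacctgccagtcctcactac
KRT8: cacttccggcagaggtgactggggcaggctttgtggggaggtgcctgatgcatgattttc

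The type I cluster ran over 970 kb, from KRT222 to KRT17, on chromosome 17 from 40654665 to 41624575. Neither list had a boundary inside it, and 1 domain of each list held all 28 genes. In the mock list the domain ran from 40360001 to 44040000, a length of 3680 kb. In the PA+OA list it ran from 40360001 to 42160000, a length of 1800 kb. The left edge was the same and the right edges stood 1880 kb apart, so the mock domain was 2.04 times as long. Mock domains such as this had 1 matched edge and did not lie within a PA+OA domain whose own edges were both matched. They held 18.0% of all protein-coding genes, 25% of those on chromosome 17 and 18.4% on chromosome 12. Domains with 1 matched edge that did lie within such a domain are not in these shares. Mock domains over 3 Mb, which held all 28 genes of the type I cluster and none of the type II cluster, held 23.1% of all genes, 24.3% of those on chromosome 17 and 6.64% of those on chromosome 12. A mock domain longer than the PA+OA domain by over 1.5-fold, as for all 28 genes of that cluster, was found for 15.4% of all genes, 22.9% on chromosome 17 and 12.5% on chromosome 12.

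The domain edge that differed was far from the keratins. The PA+OA boundary at 42160000 was 535 kb beyond KRT17, the keratin of injured epidermis that ends the cluster, and the nearest mock boundary was 1800 kb from it. The mock boundary at 44040000 was 2415 kb beyond KRT17 and 1160 kb from any PA+OA boundary. The shared left edge at 40360000 was 295 kb before KRT222. No keratin gene of either cluster came within 50 kb of a boundary that only 1 list had (0 of 55), against 5.77% of all protein-coding genes, 4.3% on chromosome 12 and 5.47% on chromosome 17.

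Type I genes near the left edge had the same nearest boundary in both lists, and those farther along did not. For the 12 genes from KRT222 to KRT40 the nearest boundary was the left edge in both lists, at 299.92 kb for KRT222, 460.36 kb for KRT10, 520.57 kb for KRT20 and 570.17 kb for KRT23. KRT20 and KRT23 are keratins of simple epithelia, with KRT20 typical of the intestine. The other 16 genes, from KRT33A to KRT17, were nearer to a boundary in the PA+OA list. KRT19, a keratin of bile duct cells, was 1165.96 kb from the nearest mock boundary and 634.04 kb from the nearest PA+OA boundary. KRT14, of basal epidermal cells, was at 1224.59 and 575.41 kb, and KRT17 at 1262.01 and 537.99 kb. The type I median was 1014 kb (mock) and 597 kb (PA+OA). On chromosome 17 as a whole the median was 347 and 303 kb, respectively, so genes of the type I cluster had a median farther from a boundary than was usual there in both lists.

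With no boundary inside the type I cluster, roles that a boundary parted in the type II cluster necessarily shared a domain in it. All 11 type I hair and nail keratins, among them KRT31, KRT33A and KRT40, all 9 keratins of stratified epithelia, the 4 of the inner root sheath (KRT25, KRT26, KRT27 and KRT28) and the 3 of simple epithelia were in 1 domain in each list. The hair keratins KRT39 and KRT40 were separated from KRT33A by 359 kb, the widest gap between neighbouring type I genes. The widest type II gap was 64.6 kb, between KRT77 and KRT76. The median gap was 11.1 kb in the type I and 13.0 kb in the type II cluster.

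The type I domain was large and rich in other genes. Within the cluster lay 34 keratin-associated protein genes, which encode the matrix proteins of hair and have no member inside the type II cluster. In the mock list the domain held 144 protein-coding genes, of which 28 were keratins, 34 were keratin-associated proteins and 82 were others, and 0.118% of mock domains held more genes. In the PA+OA list it held 88, with the same 28 and 34 and 26 others, and 0.662% of domains held more. The keratin density was 0.761 genes per 100 kb in the mock and 1.56 in the PA+OA domain. It was 3.33 and 3.21 in the keratin-only domains of chromosome 12.

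The boundary at 42160000 fell in the record of the potassium channel gene KCNH4, and RAB5C ended 5.01 kb before it. With bins of 40 kb, the lists do not resolve the side of these genes. By gene middles, the boundary left 88 of the 144 genes with the keratins and parted 56. Those that stayed included SMARCE1 and EIF1, the nearest genes on either side of the cluster, JUP, which encodes the desmosomal protein plakoglobin that helps to anchor keratin filaments, and ACLY, which encodes the enzyme that makes acetyl-CoA for fatty acid synthesis. Among those parted were STAT3, which encodes a transcription factor of cytokine signalling, and G6PC1, the glucose-6-phosphatase gene of the liver, both in a PA+OA domain from 42160001 to 45200000. Apart from JUP and the genes next to a cluster, the neighbours named here and beside the type II cluster were picked after their positions had been seen.

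Type I promoters from both parts of the cluster are printed in the same way. KRT10 and KRT20 were fixed to be named. KRT31, KRT37 and KRT38 were not, and the pairs compared were not among the planned comparisons. The printed promoters all hold TATAAA or ATAAA, while KRT9, KRT12, KRT26, KRT39 and KRT40 held neither form in their 60 bases. The windows are chr17:40822615-40822674 for KRT10, chr17:40885243-40885302 for KRT20, chr17:41397609-41397668 for KRT31, chr17:41424586-41424645 for KRT37 and chr17:41440984-41441043 for KRT38, all on the minus strand. KRT37 and KRT38, neighbouring hair keratins, had 58 of 60 bases the same, KRT31 and its near neighbour KRT33A had 38 of 60, and the adjacent pair KRT33A and KRT33B had 23 of 60.
KRT10: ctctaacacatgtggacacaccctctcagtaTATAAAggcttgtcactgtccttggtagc
KRT20: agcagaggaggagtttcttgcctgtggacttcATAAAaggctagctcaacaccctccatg
KRT31: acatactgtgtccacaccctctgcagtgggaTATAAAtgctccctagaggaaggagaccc
KRT37: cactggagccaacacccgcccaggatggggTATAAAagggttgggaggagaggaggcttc
KRT38: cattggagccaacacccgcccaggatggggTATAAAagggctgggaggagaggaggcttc

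Of the 55 members, 34 matched a promoter in the table, 14 of type II and 20 of type I, and all 34 were on the minus strand, as were 7746 of the 15812 promoters of protein-coding genes. For 29 of them the start site was the end of the gene record. The letters TATAAA began 29 bases before the start of KRT10 and KRT31 and 30 bases before that of KRT37 and KRT38. In the window from 40 to 21 bases before the start, read on the gene's own strand, TATAAA was found in 12 of 20 type I promoters (60%) and in 3 of 14 type II promoters (21.4%), against 3.62% of 15812 promoters of protein-coding genes. The shorter ATAAA, which every TATAAA contains and which was chosen after the sequences had been seen, was found there in 14 of 20 type I (70.0%) and 10 of 14 type II promoters (71.4%), against 5.98% of all. Among matched promoters, the clusters thus had like shares of the short form and unlike shares of the full one. The type I genes without a match were KRT222, KRT23, KRT13, KRT15, KRT19, KRT14, KRT16 and KRT17. Of the 14 matched promoters of hair and nail keratins, 11 were type I. The clusters thus differed in the roles that were matched. TATAAA lay from 40 to 21 bases before the start in 7 of these 14 hair and nail promoters. The type II hair keratins KRT82, KRT84 and KRT85 did not have it there. Whether the full form goes with cluster or with role was not tested.

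Over the whole 250 bases before the start, TATAAA was found on the gene's strand in 14 of 20 type I and 4 of 14 type II promoters, against 6.7% of all, and on the opposite strand in 1 and 2, against 3.7%. The letters TGANTCA, bound by AP-1 factors, were on neither strand of any of the 34, and in 5.0% of all promoters. The share of G and C had a median of 42.4% in type I and 48.0% in type II promoters, and 62.0% in all. Neighbouring keratin genes are duplicates of one another, so their promoters are not independent. A match of letters is a description and not a measured binding site.

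**Figure D3:**
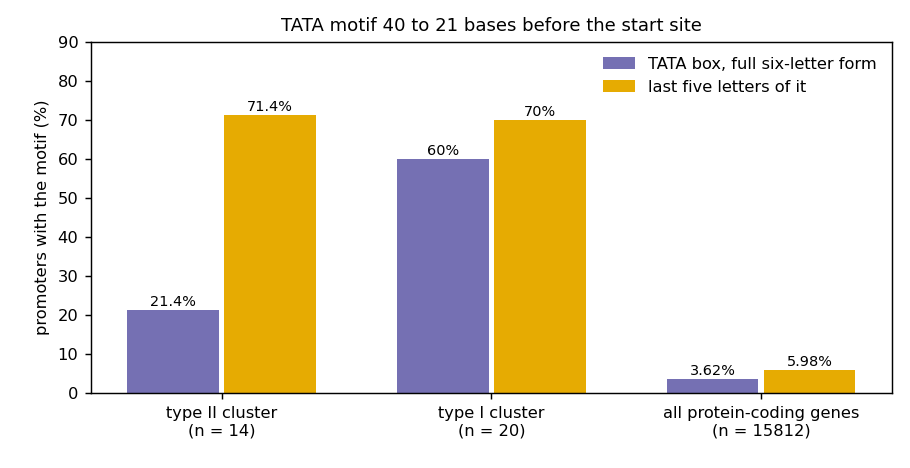
Share of promoters, in percent, with the TATA motif from 40 to 21 bases before the start site, for type II keratins, type I keratins and all protein-coding genes, where n is the number of promoters. The full form reaches 21.4%, 60% and 3.62%, and its last letters ATAAA 71.4%, 70.0% and 5.98%.

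Genes that work with keratins were set beside them from fixed lists. None of the 94 keratin-associated protein genes lay in a kept mock domain, against the 40.5% of all genes, but they occupied only 5 mock domains, of which 1 was the type I keratin domain with its 34 members. The others lay on chromosome 21, with 49 genes in 2 domains, and on chromosome 11, with 11 genes in 2. KRTAP5-7, KRTAP5-10 and KRTAP5-11 on chromosome 11 were the genes of that list within 50 kb of a boundary that only 1 list had, or 3 of 94 against 5.77% of all genes.

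Of 15 other intermediate filament genes, 8 lay in kept mock domains (53.3%), against 40.5% of all genes, and 5 had equal coordinates in both lists, which at 33.3% was the share of all genes. Those 5 were DES, the muscle desmin gene, LMNB1 and LMNB2 of the nuclear lamina, PRPH of peripheral neurons and the lens gene BFSP1. VIM, the vimentin gene of mesenchymal cells, had a mock domain of 600 kb and a PA+OA domain of 1480 kb. LMNA, whose products line the nuclear envelope, had a mock domain of 1760 kb and a PA+OA domain of 920 kb. PRPH, on the same chromosome as the type II keratins, lay in 800 kb in both.

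Of 20 genes that anchor keratin filaments or bind them, 7 lay in kept mock domains (35.0%), against 40.5% of all genes, and 5 (25%) had equal coordinates. The plectin gene PLEC and the epiplakin gene EPPK1 shared a domain of 480 kb in both lists, and DSP, the desmoplakin gene, lay in 2160 kb in both. The desmosomal cadherin cluster of chromosome 18, from DSC3 to DSG2, had a mock domain of 600 kb and a PA+OA domain of 1160 kb. JUP shared the domain of the type I keratins in both lists. These 20 genes occupied 13 mock domains, as did the 15 other intermediate filament genes, so both shares rest on few domains.

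**Figure D4:**
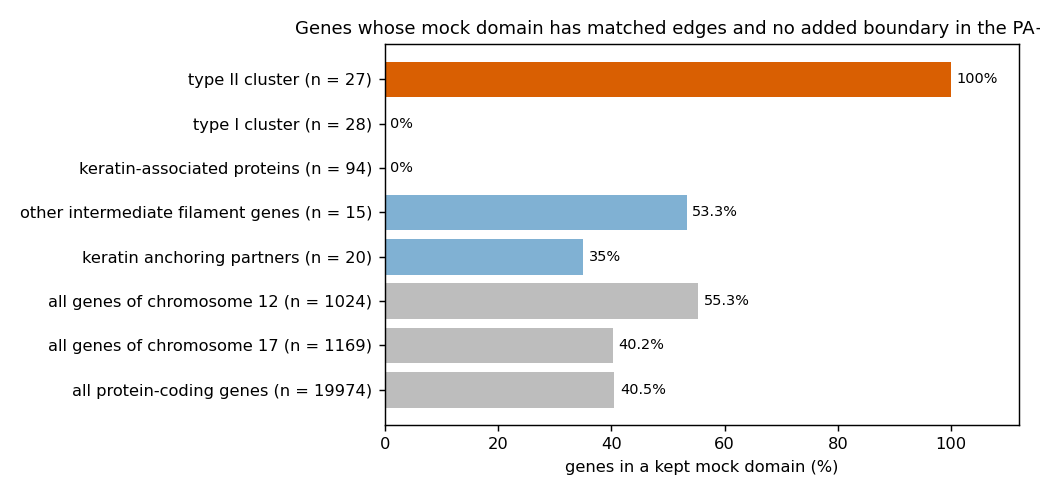
Share of genes, in percent, that lay in a kept mock domain, for the keratin clusters, 3 lists of related genes, all genes of chromosomes 12 and 17 and all protein-coding genes, where n is the number of genes. The type II cluster is at 100%, the type I cluster and keratin-associated proteins at 0%, the other lists at 53.3% and 35%, and the backgrounds at 55.3%, 40.2% and 40.5%.

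KRT8 and KRT18 have many pseudogene copies over the genome, which were placed in the same way. Of 52 KRT8 pseudogene records, 18 lay in kept mock domains (34.6%), and of 67 KRT18 pseudogene records 19 did (28.4%), against 40.5% of protein-coding genes. The records occupied 51 and 65 mock domains on 18 and 21 chromosomes. None lay in a mock domain with a keratin gene, but those domains held only 5, 8, 18 and 144 of the 19974 protein-coding genes. The absence is therefore not read as a trait of the copies. Equal coordinates were found for 25% of the KRT8 copies and 23.9% of the KRT18 copies, against 33.3% of protein-coding genes. No share over all pseudogene records was computed, so these lower shares are not read as a trait of the KRT8 and KRT18 copies either.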

How the data were processed

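Per the labels, Hi-C was run on HepG2 cells, with 1 library in each of the mock and PA+OA groups, taken from the titles. FastQC and HiC-Pro were used on hg38, per the submitters' processing notes; the caller of the domains, the matrix normalization and the depth were not given in the sources used here, and domain lists can depend on them. The deposited lists hold starts and ends in base pairs. Starts count from 0 and are printed as start plus 1. Edges within 1 bin of 40 kb were merged to 1 boundary. Genes came from the RefSeq table of GRCh38.p14. Zero-length entries (136 mock, 108 PA+OA) were retained and hold no gene. Named genes were KRT8, KRT18 and 10 other fixed keratins, cluster ends, members nearest a boundary, members whose domain differed, and the next neighbours. Members and lists were chosen with earlier results of these data known. Classification was tested on simulated lists. Python 3.11.15 and pandas 2.3.3 were used. Proteins were not analysed here. Alternatives varied the tolerance, gene placement, merging, zero-length entries, overlap and window.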

Additional observations from a re-analysis of the deposited data

How the results depend on the processing

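The 15 counts (members placed, in kept domains, with equal coordinates or within 50 kb of a boundary of 1 list only, and the domains and boundaries of each cluster) had the same value under each of the 10 alternatives that was run for them. A tolerance of 0, 2 or 3 bins, genes placed by the start or the end of the record, edges not merged and zero-length entries left out were run for all 15. Not every setting could move every count. The tolerance enters only the counts in kept domains and the count near a boundary of 1 list only. Merging and zero-length entries do not enter the counts placed, with equal coordinates or of domains. Gene placement does not enter the counts of boundaries inside a cluster. Kept domains by reciprocal overlap of at least 80% were run for the 4 counts of members in kept domains, and windows of 25 or 100 kb for the count near a boundary of 1 list only. Even where they enter a count, tolerance, overlap and window could not move it. Type II edges were equal in both lists, and the differing type I edges were 1160 and 1800 kb from the other list. The nearest boundary of 1 list only was 537.99 kb from a keratin gene, KRT17. The unchanged values are thus no check of these settings. Protein identity between keratins, which had been planned, was not run. No paired analysis was possible because each group has 1 library. The depth is unknown, so the precision of a boundary could not be given, and positions are resolved to 40 kb.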
